A study of Mus musculus with 6 samples.

Results

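A set of 10 genes of cartilage and fibrocartilage was followed in single cells of the injured enthesis, the site where the rotator cuff tendon inserts into bone. They are the transcription factors Sox9, Sox5 and Sox6, the matrix genes Acan, Comp, Hapln1, Matn3, Chad and Cnmd, and the lubricant gene Prg4. They were chosen by symbol, with earlier results of these data known, and each of the 10 had 1 row among the 32285 genes listed for every library. Tissue was taken at 7 days post injury (dpi) from mice aged 12 to 14 weeks after the supraspinatus tendon had been transected and sutured back to the bone, and every library of both groups had this injury and repair. The 3 wild-type libraries came from C57BL/6 mice and the 3 Nlrp3-/- libraries from knockout mice that lack the NLRP3 inflammasome sensor. Entheses were pooled, with n = 3 mice stated per genotype, how the pooling relates to the libraries is not given in the sources used here, and no uninjured enthesis was part of the comparison. The genotype label of Nlrp3-/- replicate 2 reads Nlrp4 knockout and that of replicate 3 reads Nlrp5 knockout, while their titles read Nlrp3 knockout, and the titles were used.

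Sox9 encodes the factor that commits cells to cartilage, and Sox5 and Sox6 encode its partners, which together activate the collagen and proteoglycan genes of the chondrocyte. The product of Acan is the large proteoglycan that holds water in cartilage, and the link protein made from Hapln1 fastens it to hyaluronan. At the enthesis these genes mark fibrocartilage, the tissue that grades tendon into bone, while Prg4 encodes lubricin, which cells of the joint lining and of the cartilage surface secrete.

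The libraries held 97042713 to 134901999 unique molecular identifiers (UMIs) and 9348 to 21100 cells each. Nlrp3-/- replicate 1 stood apart, with a median of 1748.5 UMIs per cell against 3827 to 6689 in the others and with most of the 11900 cells that were set aside because over 75% of their cluster came from 1 library, at a depth below that library's median. Any 2 libraries shared 26 to 94 cell barcodes, 0.254% to 0.626% of the smaller one. The targeted gene Nlrp3 had 7927, 16222 and 11109 UMIs in the wild-type libraries and 0 in each Nlrp3-/- library. Xist, transcribed from the inactive X chromosome, was at 783 to 922 counts per 1000000 UMIs (CPM) in the Nlrp3-/- libraries and at 0.0243 to 0.102 CPM in wild-type libraries, and Y-linked Ddx3y had UMIs only in the latter. Genotype and sex of the animals cannot be told apart in any comparison below.

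Of 69090 cells compared, 13107 were mesenchymal, and 574 of these resembled chondrocytes by the collagen genes Col2a1, Col9a1, Col9a2, Col9a3, Col11a2 and Col10a1 and by Matn1, Snorc and Ucma. No member was used to cluster or to name cells. In the chondrocyte-like cells Col2a1, the main collagen of cartilage, stood at 32173 to 38615 CPM in each library with such cells, against a median of 12.9 CPM over the other mesenchymal subtypes. All 9 markers were detected in each of these libraries, the weakest, Matn1, at 15.8 to 53.1 CPM. Type names below stand for cells that resemble the type. The name of the synovial lining cells rested on 4 detected markers, with a marker score of 2.72 against 2.26 for the inflammatory fibroblast list. In these cells Has1, Htr2a, Cd55 and Creb5 were above the median of the other subtypes in every library. Clic5, Tspan15 and Htra4 were below it in wild-type replicate 1, and Clic5 also in wild-type replicate 3.

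The chondrocyte-like cells were spread very unevenly over the libraries. They made up 4.60% of mesenchymal cells in wild-type replicate 1 (59 of 1284, exact 95% interval 3.52% to 5.89%) and 2.94% in wild-type replicate 3 (47 of 1599, 2.17% to 3.89%). They made up 0.897% in Nlrp3-/- replicate 1 (22 of 2453, 0.563% to 1.35%) and 22.7% in Nlrp3-/- replicate 2 (446 of 1969, 20.8% to 24.6%). None of 2563 cells in wild-type replicate 2 and none of 3239 in Nlrp3-/- replicate 3 was of this type, which allows shares of up to 0.117% and 0.0926% by a floor of 3 counts and of up to 0.144% and 0.114% by the exact interval. By these names each genotype had 1 library without chondrocyte-like cells, and 446 of the 574 cells came from a single Nlrp3-/- library. The counts depend on the second round of clustering, within mesenchymal cells. In the first round, over all cells, a chondrocyte-like cluster of 1068 cells held 84, 10 and 72 cells of wild-type replicates 1, 2 and 3 and 353, 542 and 7 cells of Nlrp3-/- replicates 1, 2 and 3. The intervals cover counting error only. With the set-aside clusters kept, Nlrp3-/- replicate 1 had 9328 mesenchymal cells, of which 2453 entered its share and its mesenchymal levels below. The other libraries had 1316 to 3284 such cells with these clusters kept, against 1284 to 3239 compared.

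The 3 Sox genes differed in where they were read out. Sox9 (ENSMUSG00000000567, chromosome 11, 112782224 to 112787760, GRCm38) was at 583 and 804 CPM in the chondrocyte-like cells of wild-type replicates 1 and 3 and at 640.3 and 789 CPM in those of Nlrp3-/- replicates 1 and 2. Its mean there, 704 ± 109 CPM (SD, n = 4 libraries), was 3.95 times that of tenocyte-like cells, 178 ± 81.1 CPM (n = 6), and no tenocyte library reached the chondrocyte range. Below that, Sox9 fell off in small steps whose neighbours all overlapped, through matrix fibroblasts at 165 ± 62.9 CPM and inflammatory fibroblasts at 140.3 ± 67.7 CPM to universal fibroblasts at 82.6 ± 44.3 CPM. Pericytes and smooth muscle cells came last at 9.54 ± 6.06 CPM, with no overlap with the universal fibroblasts. Sox9 transcripts were thus present in every fibroblast-like subtype.

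Sox6 (ENSMUSG00000051910, chromosome 7, 115470872 to 116038796) was more restricted. It was at 82.2, 119, 86.0 and 110.3 CPM in the chondrocyte-like cells of wild-type replicates 1 and 3 and Nlrp3-/- replicates 1 and 2, a mean of 99.3 ± 17.9 CPM and 13.9 times the 7.15 ± 2.70 CPM of tenocyte-like cells. No other named mesenchymal subtype had a mean above 3.21 CPM, that of pericytes and smooth muscle cells. This type joined a cluster of 67 cells with Sox6 at 43.5 CPM, from 24 UMIs, and one of 698 cells with Sox6 at 0.538 CPM, from 4 UMIs. Outside the mesenchyme, Sox6, which also works in red cell precursors, was at 147 to 246 CPM in the erythroid-like cells of the 5 libraries with at least 20 of them, above its chondrocyte level in every one. Erythroid-like cells held 32.5 ± 10.9% (SD, n = 6 libraries) of the Sox6 UMIs of a library and mesenchymal cells 62.6 ± 13.1%, whereas for each of the 9 other members mesenchymal cells held a mean of 91.1% or more.

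Sox5 (ENSMUSG00000041540, chromosome 6, 143828425 to 144781977) did not have its highest mean in chondrocyte-like cells. It averaged 61.7 ± 21.0 CPM (n = 6) in synovial lining cells, 51.7 ± 24.0 CPM (n = 4) in chondrocyte-like cells and 39.7 ± 12.1 CPM (n = 6) in pericytes and smooth muscle cells, and these 3 neighbours in the order overlapped. In the lining the wild-type libraries were at 26.6, 47.8 and 80.8 CPM and the Nlrp3-/- libraries at 66.7, 80.6 and 67.5 CPM. Universal fibroblasts were lowest at 8.89 ± 3.90 CPM. The order of Sox5 therefore put a lining and a mural type beside the chondrocyte-like cells, which neither Sox9 nor Sox6 did.

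Acan (ENSMUSG00000030607, chromosome 7, 79053483 to 79115099) was at 6178 and 5152 CPM in the chondrocyte-like cells of wild-type replicates 1 and 3 and at 5414 and 6076 CPM in those of Nlrp3-/- replicates 1 and 2. The 4 libraries lay close together around a mean of 5705 ± 501 CPM. Tenocyte-like cells followed at 617 ± 239 CPM, with 301, 490.1 and 792 CPM in the wild-type and 472, 949 and 700.4 CPM in the Nlrp3-/- libraries, a mean 9.24 times lower than in chondrocyte-like cells. Matrix fibroblasts came next at 291 ± 116 CPM, overlapping the tenocytes. Comp (ENSMUSG00000031849, chromosome 8, 70373558 to 70382066), which encodes a pentameric protein of cartilage and tendon that binds collagen, had the same leading types. It was at 7263, 4921, 4988 and 4689 CPM in the chondrocyte-like cells in the same order of libraries, 10.98 times its mean in tenocyte-like cells of 498 ± 331 CPM. Inflammatory fibroblasts, at 352 ± 177 CPM, overlapped the tenocytes for Comp. Both genes were therefore measurable well outside the chondrocyte-like cells.

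**Figure D1:**
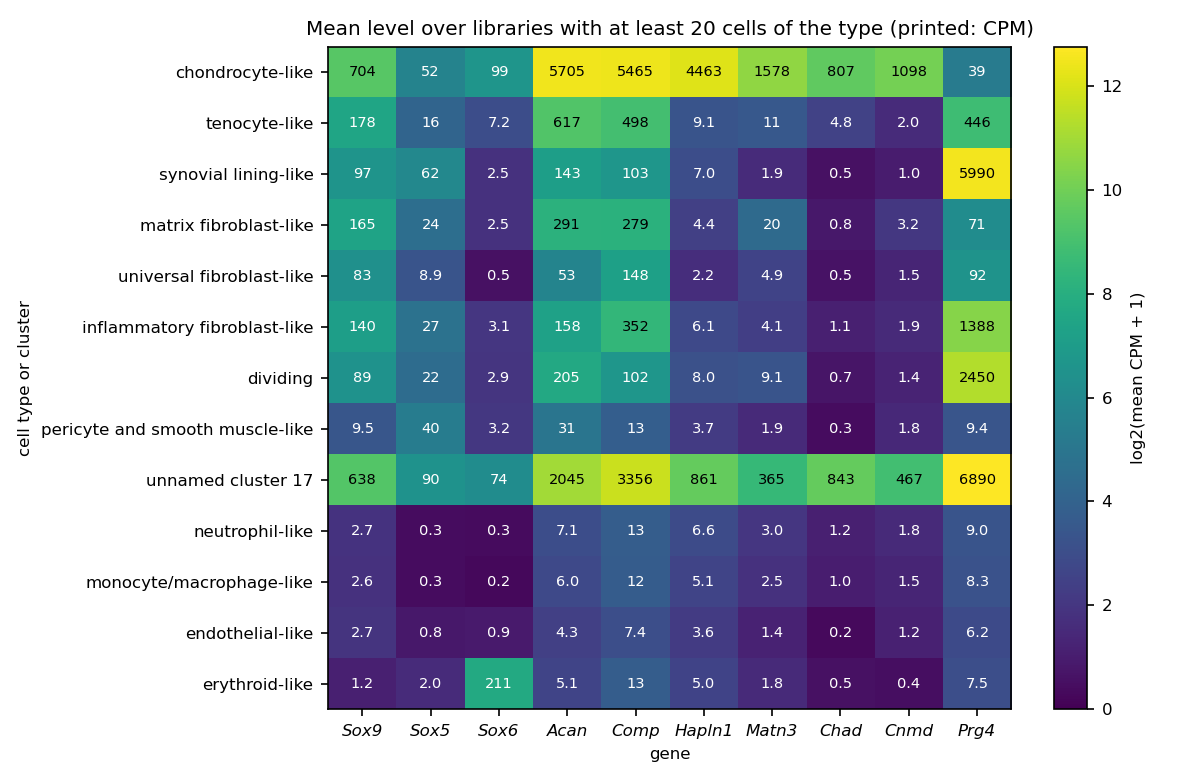
Mean level of each gene (columns) in each mesenchymal subtype, in unnamed cluster 17 and in 4 non-mesenchymal types (rows), over libraries with at least 20 cells of the type; colour is log2(mean CPM + 1) and the printed numbers are CPM. Hapln1, Matn3, Chad and Cnmd are bright in the chondrocyte-like row and in cluster 17 and dark elsewhere, while Acan, Comp and Sox9 spread into tenocyte-like and fibroblast rows and Prg4 is highest in the synovial lining among the named types (its mean in cluster 17 rests on wild-type replicate 1, at 20884 CPM).

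The other 4 matrix genes were almost confined to the chondrocyte-like cells among the named subtypes. Hapln1 (ENSMUSG00000021613, chromosome 13, 89539796 to 89611652) was at 4454 and 4541 CPM in the chondrocyte-like cells of wild-type replicates 1 and 3 and at 3388 and 5470.3 CPM in those of Nlrp3-/- replicates 1 and 2. Its highest value in any library of any other named subtype was 26.7 CPM, in the dividing cells of Nlrp3-/- replicate 2. Matn3 (ENSMUSG00000020583, chromosome 12, 8947929 to 8972028), which encodes matrilin-3, a filament-forming adaptor of the cartilage matrix, was at 1336, 1387, 1147 and 2439.9 CPM in the same 4 libraries. Its next mean, 19.96 ± 5.599 CPM in matrix fibroblasts, was 79.0 times lower and did not fall under 12.4 CPM in any library.

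Chad (ENSMUSG00000039084, chromosome 11, 94565047 to 94569127) encodes chondroadherin, a leucine-rich protein that binds cells and collagen. It was at 865, 837, 1185 and 341 CPM in the chondrocyte-like cells of wild-type replicates 1 and 3 and Nlrp3-/- replicates 1 and 2, and its next mean was 4.76 ± 6.53 CPM in tenocyte-like cells. Cnmd (ENSMUSG00000022025, chromosome 14, 79637690 to 79662170) encodes chondromodulin, which keeps vessels out of cartilage. It was at 1627, 906, 277 and 1579.8 CPM in the same libraries and at no more than 8.49 CPM in any library of another named subtype. Chad and Cnmd thus varied more between the libraries' chondrocyte-like cells than Acan did: Nlrp3-/- replicate 2 was lowest for Chad, and replicate 1, with 22 such cells, was lowest for Cnmd.

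The upstream sequences of these 4 genes are shown because the 4 genes shared 1 pattern over the subtypes. They are the 250 bases before the RefSeq start site on the sense strand in GRCm38.p6, at chr13:89540386-89540635 on the plus strand for Hapln1, chr12:8947679-8947928 (plus) for Matn3, chr11:94564797-94565046 (plus) for Chad and chr14:79662184-79662433 (minus) for Cnmd. Capitals mark TATAAA, the core letters of a TATA box.
Hapln1: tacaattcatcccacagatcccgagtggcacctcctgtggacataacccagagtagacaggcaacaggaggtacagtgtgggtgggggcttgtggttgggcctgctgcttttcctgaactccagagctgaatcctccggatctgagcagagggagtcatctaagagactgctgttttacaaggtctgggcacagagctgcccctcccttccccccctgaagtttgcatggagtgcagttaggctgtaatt
Matn3: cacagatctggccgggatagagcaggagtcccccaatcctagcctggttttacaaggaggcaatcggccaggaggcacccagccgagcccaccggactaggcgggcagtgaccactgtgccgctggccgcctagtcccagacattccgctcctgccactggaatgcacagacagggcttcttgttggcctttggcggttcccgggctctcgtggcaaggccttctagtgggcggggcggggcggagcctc
Chad: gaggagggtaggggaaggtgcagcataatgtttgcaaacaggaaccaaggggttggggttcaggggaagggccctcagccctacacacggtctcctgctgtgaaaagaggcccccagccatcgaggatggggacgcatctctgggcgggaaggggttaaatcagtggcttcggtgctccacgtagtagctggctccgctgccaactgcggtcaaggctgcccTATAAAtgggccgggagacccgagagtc
Cnmd: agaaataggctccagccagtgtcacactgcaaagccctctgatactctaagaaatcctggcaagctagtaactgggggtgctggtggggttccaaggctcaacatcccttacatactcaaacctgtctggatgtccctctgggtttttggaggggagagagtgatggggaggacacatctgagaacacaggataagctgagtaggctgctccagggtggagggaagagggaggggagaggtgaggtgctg
Chad holds TATAAA from position -28 on its own strand, and none of the other 3 holds it. Neither ACAATG nor ACAAAG, core words of the motif that SOX proteins bind, occurs on either strand in the 4 sequences. These words lie within the same distance of 10.7% and 16.5% of all 32851 RefSeq promoters, and TATAAA within 12.4%. RefSeq entries were matched for 7 of the 10 members. Sox9, Comp and Prg4 were not among them. At least 1 of the 2 SOX words lies in 25.2% of all promoters. The upstream sequence of Acan holds 0, that of Sox5 holds 1, and 5 of the 6 alternative promoters of Sox6 hold at least 1. The RefSeq starts can differ from the gene bounds given above, and the windows of Hapln1 and Sox5 lie within those bounds. So do the windows of Sox6, apart from the most upstream one, which crosses the bound. Matches in letters describe these windows and do not locate a site.

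Over the 46 profiles of 1 subtype in 1 library, the 6 pairs among Hapln1, Matn3, Chad and Cnmd had Pearson correlations of log2(CPM + 1) between 0.85 and 0.92. Without the 4 chondrocyte-like profiles they fell to between 0.13 and 0.63, so the shared pattern rested mainly on that subtype. Sox9 with Acan gave 0.80 over all profiles and 0.71 without the chondrocyte-like ones. The genes most like each member, by the same measure among genes with a mean of at least 5 CPM, were Col9a3 (0.96) and Col9a1 (0.94) for Matn3, Snorc (0.96) and Col9a3 (0.95) for Cnmd, Col2a1 (0.93) and Sgms2 (0.93) for Hapln1, and Foxa3 (0.94) and Panx3 (0.94) for Chad. Those for the broader genes were Pak3 (0.93) and Col11a1 (0.91) for Sox9, Pde4dip (0.91) and Fmod (0.89) for Acan, Col11a1 (0.92) and Sparc (0.88) for Comp, Adk (0.88) and Hapln1 (0.86) for Sox6, and Irx3 (0.81) and Cdk6 (0.81) for Sox5. For Prg4 they were Timp1 (0.92) and Lmo1 (0.91). The points share libraries and cells, several of the genes named here helped to name the subtypes, and the values are descriptions.

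Prg4 (ENSMUSG00000006014, chromosome 1, 150449412 to 150466165) stood apart from the cartilage matrix genes. In synovial lining cells it was at 4972, 5269.7 and 4737 CPM in the wild-type libraries and at 3977, 10373 and 6611 CPM in the Nlrp3-/- libraries. Dividing mesenchymal cells followed at 2450.2 ± 1485 CPM and inflammatory fibroblasts at 1388 ± 918 CPM, each overlapping the type above it. The inflammatory fibroblasts joined 2 clusters that differed in Prg4, one of 783 cells, 583 of them from wild-type replicate 2, at 73.9 CPM and one of 863 cells, 465 of them from Nlrp3-/- replicate 3, at 2505.8 CPM. Tenocyte-like cells came next at 446 ± 109 CPM, with no overlap with the universal fibroblasts below them at 91.9 ± 66.6 CPM. Chondrocyte-like cells held Prg4 at only 39.0 ± 31.8 CPM, and they held 0.210 ± 0.270% of its UMIs per library, against 35.4 ± 15.4% in the synovial lining.

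Shares of cells with at least 1 UMI were compared after each cell had been thinned to 2000 UMIs, which left out 2 of 574 chondrocyte-like cells and 9167 of 19402 neutrophils. Acan was found in a mean of 99.9% of chondrocyte-like cells, Hapln1 in 99.7% and Comp in 99.1% (n = 4 libraries). Matn3 was found in 79.8%, Cnmd in 67.6%, Sox9 in 67.5%, Chad in 60.2%, Sox6 in 12.3%, Sox5 in 10.5% and Prg4 in 7.66%. Unthinned, Sox6 was found in 71.3% and Sox5 in 55.7% of these cells, at a median depth of 9493.5 to 32359 UMIs. In tenocyte-like cells the thinned share was 54.6% for Acan, 45.4% for Comp and 24.5% for Sox9, and no more than 2.47% for Sox5, Sox6, Hapln1, Matn3, Chad and Cnmd. Prg4 was found in 74.4% of synovial lining cells and 28.3% of tenocyte-like cells.

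Neutrophils, which should lack all 10 transcripts, give a reference for free RNA in the droplets. Their thinned share was at most a mean of 2.52%, for Comp (0.413% to 8.64% over the libraries), at a median depth of 1372 to 3558 UMIs before thinning. For Comp, Hapln1, Acan and Matn3 the neutrophil level was highest in the library with the most chondrocyte-like cells, and for Sox5 and Sox6 it was not. In Nlrp3-/- replicate 2 neutrophils held Comp at 41.7, Hapln1 at 30.3, Acan at 25.7 and Matn3 at 15.2 CPM, and in the other 5 libraries they held at most 11.9, 4.59, 4.92 and 1.51 CPM. Hapln1 at 16.2 CPM in the tenocyte-like cells and at 26.7 CPM in the dividing cells of that library was below its neutrophil level there, but median depths were 12890 and 22123 UMIs against 3558 in neutrophils, and the part of free RNA in these values was not tested. Acan and Comp in tenocyte-like cells were above the neutrophil level of the same library in all 6.

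**Figure D2:**
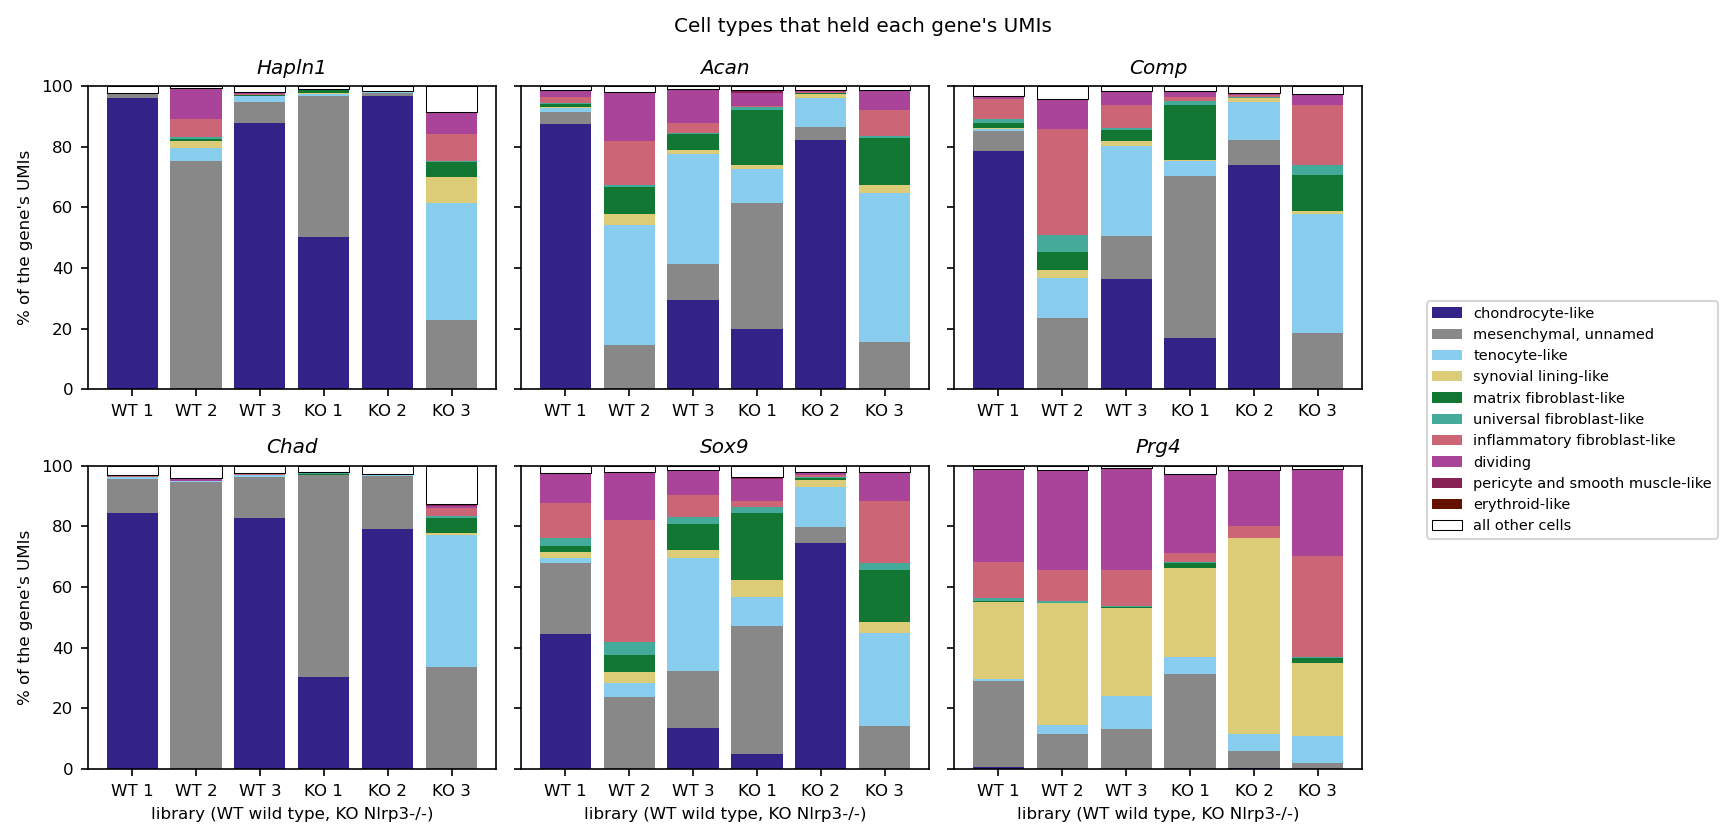
Percent of the UMIs of 6 genes (panels) held by each mesenchymal subtype, by erythroid-like cells and by all other cells, in each library (bars; WT wild type, KO Nlrp3-/-). The chondrocyte-like segment is absent in wild-type replicate 2 and Nlrp3-/- replicate 3 and takes up to 96.8% of Hapln1 in the other libraries, while Prg4 is split over lining, dividing and inflammatory cells.

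A further cluster of 340 mesenchymal cells, cluster 17, was led by Cytl1, Snorc, Col2a1 and Ibsp and did not meet the rule for a name, since cartilage and bone genes both led it. Pooled over libraries it held Sox9 at 584, Acan at 2282, Comp at 3825, Hapln1 at 812 and Chad at 931 CPM. For Chad this was above the chondrocyte-like mean of 807 CPM and for the other 4 below their chondrocyte-like means. Sox5, at 82.1 CPM, was also above its chondrocyte-like mean. Prg4 in this cluster was at 20884 CPM in wild-type replicate 1 and at 1480.2, 3804 and 1394 CPM in wild-type replicate 3 and Nlrp3-/- replicates 1 and 2. It entered the mesenchymal sums and no named subtype.

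The first comparison of the genotypes summed all mesenchymal cells of a library, and asked whether loss of NLRP3 changed the members in the healing enthesis. The edgeR quasi-likelihood test over 15009 genes called 19 of them at an adjusted p under 0.05, 0.127% of the genes tested (0.04% higher and 0.0866% lower in Nlrp3-/-), and 0 of the 10 members. At an unadjusted p under 0.05, 1838 genes passed, none of them a member, and DESeq2 called 244 genes. The p-values measure the spread between these libraries.

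All 10 members had a fold change above 0, and for 9 of them the direction turned without 1 library, Nlrp3-/- replicate 2. Of these 9, Prg4 reversed in 3 of 18 alternatives, and Hapln1, Matn3, Chad and Cnmd in 2 each. The direction of these genes thus did not depend on that library alone. Hapln1 was at 405, 3.36 and 207 CPM in the mesenchymal cells of wild-type replicates 1, 2 and 3 and at 67.6, 2080.3 and 8.28 CPM in those of Nlrp3-/- replicates 1, 2 and 3. Nlrp3-/- replicate 2 was highest and the other Nlrp3-/- libraries lay within the wild-type range, and the log2 fold change was 1.79 (standard error, SE, 1.98; edgeR adjusted p 0.671). Matn3 was at 124, 2.18 and 73.1 CPM in wild-type and at 37.8, 943 and 15.03 CPM in Nlrp3-/- libraries, the largest log2 fold change at 2.31 (SE 1.75, edgeR adjusted p 0.557). Cnmd was at 148, 1.51 and 48.8 CPM against 16.6, 613 and 1.81 CPM (log2 fold change 1.66, SE 1.99, edgeR adjusted p 0.696). In each case the libraries without chondrocyte-like cells were the lowest of their genotype.

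Acan was at 622, 60.7 and 710.2 CPM in the wild-type and at 274, 2731 and 328 CPM in the Nlrp3-/- libraries, a log2 fold change of 1.23 (SE 1.14, edgeR adjusted p 0.617). Comp was at 800.2, 96.2 and 543 CPM against 294, 2312 and 376 CPM (1.02, SE 0.99, edgeR adjusted p 0.632). Chad was at 88.7, 9.23 and 40.3 CPM against 38.8, 157 and 3.41 CPM (0.50, SE 1.23, edgeR adjusted p 0.857). The groups overlapped for each of the 3, and Nlrp3-/- replicate 2 was again the highest library.

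Sox9 was at 114, 88.02 and 239 CPM in the wild-type libraries and at 128, 389 and 178 CPM in the Nlrp3-/- libraries, a log2 fold change of 0.61 (SE 0.53, edgeR adjusted p 0.601). Sox5 was at 17.2, 17.9 and 29.4 CPM against 26.1, 41.5 and 25.7 CPM (0.48, SE 0.30, edgeR adjusted p 0.488), the lowest adjusted p of the 10. Sox6 was at 9.16, 0.965 and 9.67 CPM against 4.60, 46.8 and 3.84 CPM (1.47, SE 1.17, edgeR adjusted p 0.572). Prg4 had the smallest fold change of the 10, at 1198, 929 and 964 CPM against 537, 1535 and 1399 CPM (0.12, SE 0.39, edgeR adjusted p 0.897). All 4 ranges overlapped.

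**Figure D3:**
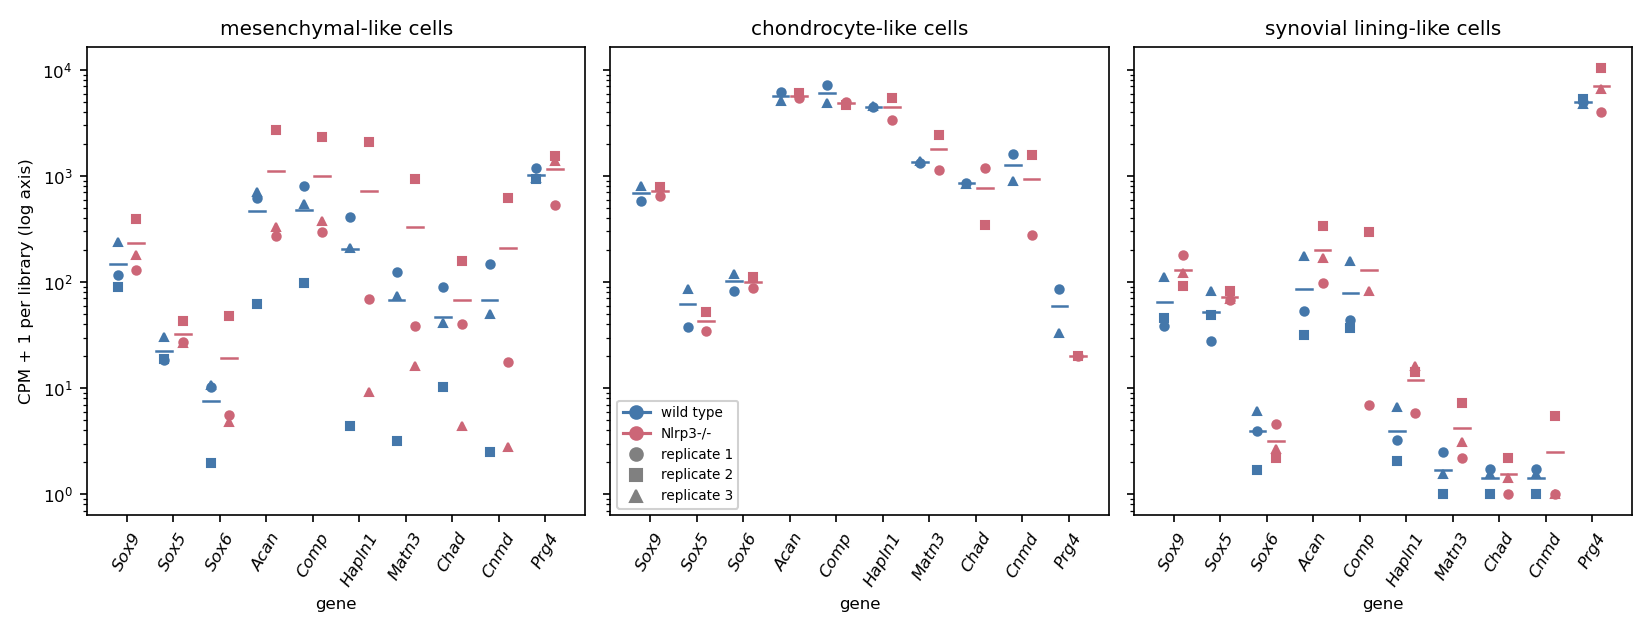
Level of each gene in each library (points; CPM + 1, log axis) in all mesenchymal cells, in chondrocyte-like cells and in synovial lining cells, with the mean of each genotype as a line. Nlrp3-/- replicate 2 (square) is the highest mesenchymal library for all 10 genes, and the spread of Hapln1, Matn3 and Cnmd over libraries shrinks from the mesenchymal to the chondrocyte-like panel.

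The median log2 fold change of the 10 members was 1.13, beside 0.039 over all genes tested, of which 54.4% were above 0. Without Nlrp3-/- replicate 2 the fold change turned negative for 9 of the 10, from -0.032 for Sox9 to -2.98 for Cnmd, and stayed above 0 only for Sox5, at 0.18. Without Nlrp3-/- replicate 1, the shallow library, all 10 were above 0, between 0.47 for Prg4 and 2.85 for Matn3, and none was called. With the chondrocyte-like cells left out of the sums, all 10 stayed above 0, between 0.19 for Sox9 and 1.77 for Matn3, and none was called. Unnamed cluster 17, with Col2a1 at 8975 CPM, stayed in these sums. It held 23, 10 and 28 cells of the wild-type and 172, 99 and 8 cells of the Nlrp3-/- libraries, and its part was not tested. Neutrophil markers, 9 in number and all detected, summed to 1132 to 4500 CPM in wild-type and 1078 to 1558 CPM in Nlrp3-/- mesenchymal cells, and their part in these results was not tested.

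The second comparison took only the chondrocyte-like cells, so that their number did not enter, and rested on wild-type replicates 1 and 3 and Nlrp3-/- replicates 1 and 2. Within the type, Nlrp3-/- replicate 1 had Col10a1 at 10010 CPM against 1696 to 3709 CPM in the others. It had Ucma at 124 CPM against 452 to 2238 CPM and Snorc at 7186 CPM against 2830 to 5272 CPM. Col9a1 was at 1921 CPM against 2537 to 3204 CPM and Col9a2 at 1462 CPM against 1878 to 2354 CPM. Col9a3 was at 1300 CPM against 1992 to 4598 CPM. Of the naming markers, only Col2a1, Col11a2 and Matn1 lay within the range of the others. The part of this make-up was not tested. Of 8829 genes, 6 were called (0.068%, of which 0.0227% higher and 0.0453% lower in Nlrp3-/-), and 0 of the 10 members. The fold change was above 0 for 1 member and below 0 for 9, with a median log2 value of -0.15 beside -0.012 over all genes tested, of which 48.9% were above 0. The values given above for Sox9, Sox6, Acan, Comp, Hapln1, Matn3, Chad and Cnmd overlapped between the genotypes. Their log2 fold changes ran from -0.52 for Cnmd (SE 0.63) to 0.34 for Matn3 (SE 0.42). Comp differed by -0.40, and by -0.72 to -0.040 with 1 library left out, and Chad differed by -0.22. Sox9 differed by -0.0023 (SE 0.36) and Acan by -0.044 (SE 0.39), and all 10 members had an edgeR adjusted p of 1.00. Sox5 was at 36.8 and 85.9 CPM in wild-type and 33.4 and 50.7 CPM in Nlrp3-/- libraries (-0.47, SE 0.44).

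Prg4 differed most in these cells. It was at 85.8 and 31.9 CPM in the wild-type libraries, from 168 and 39 UMIs, and at 19.1 CPM in both Nlrp3-/- libraries, from 4 and 249 UMIs. The genotypes did not overlap, as for 10.4% of all genes tested that were lower in Nlrp3-/- in this way, for a log2 fold change of -1.74 (SE 0.54, unadjusted edgeR p 0.00781), and the gene did not pass the edgeR adjustment over all genes. Without the filter on low counts it did (-1.74, edgeR adjusted p 0.0260), where the count of all called genes also rose. Without wild-type replicate 3 the log2 fold change was -2.30. Wild-type replicate 1 was then the only library of its genotype and was assumed to vary like the Nlrp3-/- ones. With each library left out in turn, the log2 fold change lay between -2.30 and -0.76. Neutrophils of Nlrp3-/- replicate 2 held Prg4 at 16.2 CPM, at a median of 3558 UMIs per cell against 28575 in its chondrocyte-like cells, and the part of free RNA was not tested. Neutrophil markers in the chondrocyte-like cells summed to 1992 and 12110 CPM in the wild-type and 468 and 1961 CPM in the Nlrp3-/- libraries, and their part in the difference was not tested.

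In tenocyte-like cells, 53 of 11486 genes were called (0.461%, of which 0.209% higher and 0.252% lower in Nlrp3-/-), and 0 of the 9 members that passed the filter on low counts; Cnmd did not pass it. The type joined 2 clusters that the libraries filled unequally. The first held 9, 16 and 243 cells of the wild-type and 31, 604 and 569 cells of the Nlrp3-/- libraries, with Comp at 979 CPM and Prg4 at 272 CPM. The second held 32, 148 and 331 cells of the wild-type and 88, 131 and 251 cells of the Nlrp3-/- libraries, with Comp at 319 CPM and Prg4 at 594 CPM. The part of this make-up in the comparisons within the type was not tested. Sox5 was at 9.46, 9.38 and 15.002 CPM in wild-type and at 23.4, 18.6 and 20.4 CPM in Nlrp3-/- libraries. Every Nlrp3-/- library lay above every wild-type library, as for 14.9% of all genes tested, at a log2 fold change of 0.59 (SE 0.22) that missed the threshold (edgeR adjusted p 0.317). Comp was at 244, 269.5 and 502 CPM against 240.3, 1083 and 649 CPM, with overlap (0.86, SE 0.42, edgeR adjusted p 0.447). It was called without the filter on low counts (0.88, edgeR adjusted p 0.00149), where the count of all called genes also rose from 53. Sox9 was at 79.5, 83.9 and 277 CPM against 199.6, 189.7 and 240.3 CPM (0.35, SE 0.37, edgeR adjusted p 0.755). Hapln1 was at 0, 2.96 and 12.8 CPM against 7.53, 16.2 and 14.9 CPM, with overlap (0.62, SE 0.44, edgeR adjusted p 0.610). Wild-type replicate 3 held the highest Sox9 value and the highest wild-type Hapln1 value, and without it Sox9 (1.23, edgeR adjusted p 0.0122) and Hapln1 (2.48, edgeR adjusted p 0.0363) were called. Over all libraries left out in turn, the values ranged from 0.069 to 1.23 for Sox9 and from 0.29 to 2.48 for Hapln1.

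Wild-type replicate 3 also differed in its tenocyte-like cells by number, with 574 against 41 and 164 in the other wild-type libraries, and leaving it out raised the count of all called genes from 53 to 609. Prg4 in tenocyte-like cells was at 418, 576 and 329 CPM in wild-type and 499, 318 and 539 CPM in Nlrp3-/- libraries (-0.063, SE 0.25, edgeR adjusted p 0.974), and Acan differed by 0.31 (SE 0.32, edgeR adjusted p 0.747). For both the ranges overlapped.

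In synovial lining cells, 20 of 9669 genes were called (0.207%, of which 0.0931% higher and 0.114% lower in Nlrp3-/-), and 0 of the 6 members that passed the filter on low counts. Hapln1 was at 2.21, 1.03 and 5.65 CPM in wild-type and at 4.76, 13.1 and 15.1 CPM in Nlrp3-/- libraries, from 3 to 44 UMIs each (2.02, SE 0.53, edgeR adjusted p 0.142). Neutrophils of Nlrp3-/- replicate 2 held Hapln1 at 30.3 CPM, at a median of 3558 UMIs per cell against 18712 in its lining cells, and the part of free RNA was not tested. Sox9 was at 37.6, 44.4 and 111 CPM against 177, 90.7 and 120.4 CPM (0.88, SE 0.36, edgeR adjusted p 0.245), with overlap through wild-type replicate 3. Acan was at 52.4, 30.6 and 174 CPM against 96.4, 335 and 169 CPM (1.19, SE 0.56, edgeR adjusted p 0.311).

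Sox9, Acan and Hapln1 were called in the lining without wild-type replicate 3, at log2 fold changes of 1.46, 2.20 and 2.89 and edgeR adjusted p of 0.0270, 0.0436 and 0.0351, and also without the filter on low counts, as was Comp (0.75, edgeR adjusted p 0.00620). With each library left out in turn, the values ranged from 0.62 to 1.46 for Sox9, 0.58 to 2.20 for Acan and 1.46 to 2.89 for Hapln1. The count of all genes called in the lining rose from 20 to 602 without wild-type replicate 3 and to 691 without the filter. Prg4 itself, the gene the lining is known for, differed by 0.38 (SE 0.30, edgeR adjusted p 0.543). Nlrp3-/- replicate 2 held its highest lining level, 10373 CPM, and Nlrp3-/- replicate 1 its lowest, 3977 CPM, so that the wild-type libraries lay between them.

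**Figure D4:**
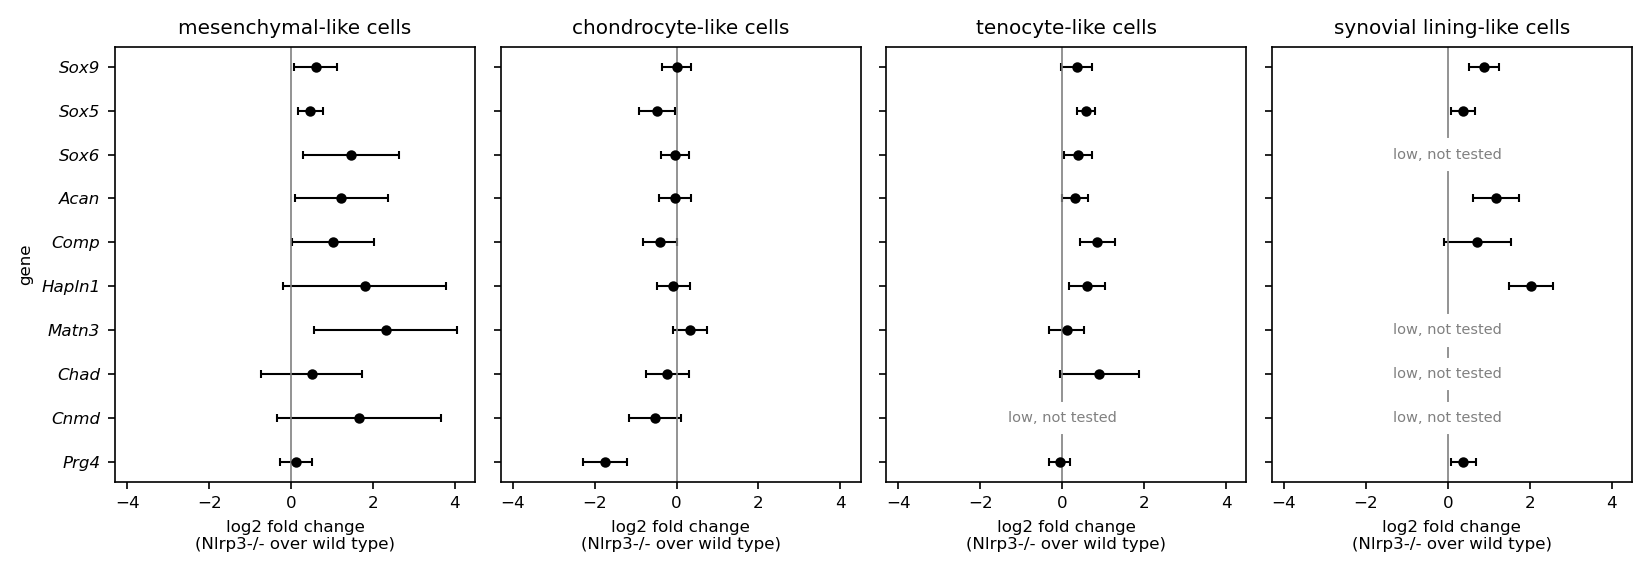
Log2 fold change of each member (Nlrp3-/- over wild type, horizontal axis) with its standard error as a bar in 4 sets of cells; genes too low for the test are marked. In mesenchymal cells all 10 points lie right of 0 with standard errors of up to 1.99, in chondrocyte-like cells most lie near 0 and Prg4 is at -1.74, and none of the points passed the adjusted threshold.

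Of 30 further cartilage genes, listed as collagens, secreted matrix proteins and growth plate regulators, 29 were tested in mesenchymal cells and 0 were called. Of their fold changes 27 were above 0, with a median log2 value of 1.17. Over all genes tested, 54.4% were above 0 and the median was 0.039. Col2a1 was at 3489, 17.2 and 1590 CPM in wild-type and at 719, 12401 and 11.2 CPM in Nlrp3-/- libraries (1.35, SE 2.11, edgeR adjusted p 0.767). Col9a1, Col9a3, Col11a1 and Snorc had log2 fold changes of 0.88 to 1.59 and edgeR adjusted p of 0.548 to 0.841. With 1 library left out, Col2a1 and each of these genes fell below 0, to between -0.14 for Col11a1 and -2.78 for Col9a3. Trps1, a transcription factor of growth plate cartilage, was at 138, 98.7 and 251 CPM against 268, 444 and 270.3 CPM. Every Nlrp3-/- library was above every wild-type one, and the gene did not pass the adjusted threshold (0.95, SE 0.39, edgeR adjusted p 0.407). Its lowest log2 fold change with 1 library left out was 0.64. The groups were also apart for Matn4 and Runx2, which were named after their values were seen. These 3 of 29 genes stand beside 14.2% of all genes tested in mesenchymal cells that were higher in every Nlrp3-/- library, and 0 of the 10 members were apart. Matn4, which encodes another matrilin, was at 21.2, 12.7 and 37.8 CPM in wild-type and at 66.9, 65.5 and 80.4 CPM in Nlrp3-/- libraries (1.504, SE 0.37, edgeR adjusted p 0.354). Runx2, a transcription factor of bone and of hypertrophic cartilage, was at 30.2, 26.0 and 40.3 CPM against 61.3, 66.9 and 41.0 CPM (0.75, SE 0.25, edgeR adjusted p 0.384).

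In chondrocyte-like cells 0 of 28 tested genes of this list were called, and in synovial lining cells 0 of 10. In tenocyte-like cells 1 of 21 was called, Wwp2, which encodes a ubiquitin ligase active in cartilage formation and which was named after its value was seen. It was at 42.9 to 45.4 CPM in the wild-type and at 75.1 to 121 CPM in the Nlrp3-/- libraries, with no overlap (log2 fold change 1.06, SE 0.20, edgeR adjusted p 0.0387). It lost the call without wild-type replicate 1, wild-type replicate 2 or Nlrp3-/- replicate 2, at edgeR adjusted p of 0.139, 0.118 and 0.162. With each library left out in turn, its log2 fold change lay between 0.86 and 1.22. This share, 1 of 21, rests on 1 gene and stands beside 0.209% of all genes called higher in tenocyte-like cells. There, 6 of the 21 were higher in Nlrp3-/- without overlap, beside 14.9% of all genes tested. In chondrocyte-like cells 6 of 28 were higher and 2 lower in this way, beside 1384 and 917 of 8829 genes. In lining cells 4 of 10 were higher in this way, beside 1537 of 9669 genes, and 0 were lower.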

How the data were processed

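Enthesis cells at 7 dpi were profiled with droplet 3′ chemistry in 3 wild-type and 3 Nlrp3-/- libraries, grouped by their titles. The authors deposited a raw matrix of UMI counts per library, with 32285 genes and without cell calling or normalization. The notes of the submitters name Cell Ranger 2.1.1 and mm10, while the file headers name Cell Ranger 4. Gene identifiers were matched to GENCODE vM21 (GRCm38), which held 32235 of them.

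Barcodes with at least 500 UMIs, at least 200 genes and at most 10% mitochondrial UMIs were kept where they differed from the ambient profile (barcodes of at most 100 UMIs, false discovery rate 0.01). The cells with the highest Scrublet scores were removed at 0.8% per 1000 cells, which left 80990. Cells were clustered with scanpy 1.11.5 (Python 3.11.15, igraph 0.11.9, scipy 1.17.1; 2000 variable genes without the members, 30 components, 15 neighbours, resolution 1.0), first over all cells and then within mesenchymal cells. Marker lists were scored in each cluster by the mean log2 ratio of their genes to the median over clusters, and the top list gave the name where at least 3 of its genes were detected and its lead was at least 0.4. The pseudocount of 0.5 CPM was set after 1 and 0.1 CPM had been tried and the names and levels seen. A cluster stayed unnamed where its 10 leading genes held markers of another list, and at least as many as of its own, a rule made stricter after that. The synovial lining cluster held no marker of any list among these 10 genes and kept its name. Clusters with over 75% of cells from 1 library and below its median depth were set aside.

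UMIs were summed per library and type with at least 20 cells and divided by all UMIs of the type (CPM). Sums were tested with edgeR 4.0.16 (R 4.3.3; TMM, filterByExpr, quasi-likelihood test, Benjamini-Hochberg adjustment over all genes, threshold 0.05), with DESeq2 1.42.0 as an alternative. On counts simulated for the mesenchymal comparison (14813 genes), 15% of genes changed 2-fold and 92% of those changed 4-fold were recovered, with 3 false calls. The simulated spread between libraries was the same for every gene, and the changed genes were drawn only from those with higher counts. These shares do not give the recovery for members that varied more between libraries, which was not tested. Levels between types were described without a test, since the same cells made the clusters. Named genes are the 10 members, Col2a1, any of the 30 further cartilage genes called in mesenchymal cells and the 6 of these with the highest mesenchymal CPM, and, for members with a mean of at least 5 CPM, the 2 genes most like each over profiles of 1 subtype in 1 library (predicted genes left out). The members and lists were chosen with earlier results of these data known. The replicate numbers of the titles did not pair the libraries: the deviations of same-numbered libraries correlated at -0.053, -0.553 and -0.114.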

Additional observations from a re-analysis of the deposited data

Results flagged for a closer look

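These values lie in clusters that were set aside and entered no comparison. A cluster of 762 cells, 97.6% of them from Nlrp3-/- replicate 1, was led by the mural genes Rgs5 and Myh11 together with the cartilage genes Snorc and Col2a1, at a median of 1423.5 UMIs per cell. Its cells from that library held Sox9 at 140.1 CPM, Sox5 at 30.4 CPM, Sox6 at 8.90 CPM, Comp at 340.3 CPM, Hapln1 at 147 CPM, Matn3 at 67.5 CPM, Chad at 102 CPM and Cnmd at 48.9 CPM. Each of these was above the level of the compared mesenchymal cells of the same library, where Hapln1 was at 67.6 CPM and Chad at 38.8 CPM. Acan and Prg4 were lower there, at 252 and 309.9 CPM against 274 and 537 CPM. In the larger set-aside cluster of the same library, with 6025 of its cells, all 10 members were below the compared cells, with Hapln1 at 5.58 CPM, Acan at 128 CPM and Chad at 14.1 CPM. These differences were not tested.

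A cluster of 126 cells, all from Nlrp3-/- replicate 2 and led by Myoc and Hmcn2, held Chad at 247 CPM from 200 UMIs, against 157 CPM in the compared mesenchymal cells of that library, which included its chondrocyte-like cells. In a cluster of 35 cells from Nlrp3-/- replicate 1, Sox5 was at 77.6 CPM from 5 UMIs. With the set-aside clusters kept, the members' log2 fold changes in mesenchymal cells all stayed above 0, between 0.075 for Prg4 and 2.26 for Matn3, and none was called.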

How the results depend on the processing

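None of the 10 members was called in mesenchymal cells under any of the 18 alternatives, and Sox6, Matn3, Chad and Cnmd, with 0 to 21 UMIs in each library, were too low for the test in the synovial lining. The count of called genes in mesenchymal cells (19) went to 244 with DESeq2 and 5 with the replicate block, and to between 8 and 540 with 1 library left out. That in chondrocyte-like cells (6) went to 70 without the filter on low counts, 12 with DESeq2, and 8 to 93 with 1 library left out, where 1 library stays in that genotype and is assumed to vary like the other group. That in tenocyte-like cells (53) went to 465 without the filter, 134 with DESeq2, 156 with the replicate block, and 22 to 609. That in synovial lining cells (20) went to 691 without the filter, 163 with DESeq2, 35 with the replicate block, and 12 to 602. The highest counts in mesenchymal, tenocyte-like and lining cells came without wild-type replicate 3 and in chondrocyte-like cells without Nlrp3-/- replicate 1, apart from those without the filter. The cause was not tested.

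With the replicate block, an additive term for a number that did not pair the libraries, log2 fold changes in mesenchymal cells were -1.93 for Hapln1, -0.48 for Matn3, -0.75 for Chad, -2.29 for Cnmd, -0.012 for Prg4, -2.20 for Col2a1, -1.78 for Col9a3, -1.87 for Snorc and -1.07 for Col9a1, and the block changed the call of no member. No block could be fitted in chondrocyte-like cells, where the libraries share 1 number. Sox9 in chondrocyte-like cells was at 0.0039 with RLE size factors and 0.0054 with DESeq2, and Chad in tenocyte-like cells at -0.80 with DESeq2.

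With 1 library left out, log2 fold changes in mesenchymal cells ranged from -0.032 to 1.15 for Sox9, -0.73 to 1.96 for Sox6, -0.71 to 1.70 for Acan, -0.60 to 1.60 for Comp, -2.54 to 2.74 for Hapln1, -1.43 to 3.11 for Matn3, -1.24 to 1.38 for Chad, -2.98 to 3.04 for Cnmd, -0.17 to 0.47 for Prg4, -2.32 to 2.41 for Col2a1, -0.14 to 1.55 for Col11a1, -2.78 to 3.16 for Col9a3, -1.77 to 2.25 for Snorc and -1.89 to 2.29 for Col9a1. In chondrocyte-like cells they ranged from -0.18 to 0.16 for Sox9, -0.96 to 0.14 for Sox5, -0.26 to 0.15 for Sox6, -0.24 to 0.14 for Acan, -0.44 to 0.19 for Hapln1, -0.28 to 0.75 for Matn3, -1.42 to 0.45 for Chad and -2.24 to 0.20 for Cnmd. In tenocyte-like cells they ranged from -0.27 to 1.66 for Matn3, -0.19 to 2.07 for Chad and -0.27 to 0.22 for Prg4, and in lining cells from -0.72 to 1.66 for Comp and -0.040 to 0.66 for Prg4.

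The naming pseudocount of 0.5 CPM was chosen after seeing the data, with 1 and 0.1 CPM as alternatives. With 1 CPM no cluster was named synovial lining, and with 0.1 CPM the matrix fibroblasts were unnamed. Counts and member values in the tested types, such as the 19 genes called in mesenchymal cells, were those of 0.5 CPM.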
